A study of Mus musculus with 39 samples.

Results

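Iron storage, transport and heme handling were followed in the crushed sciatic nerve through 10 genes, *Fth1*, *Ftl1*, *Tfrc*, *Trf*, *Slc40a1*, *Slc11a1*, *Slc11a2*, *Hmox1*, *Cp* and *Cd163l1*. They were found by their Ensembl identifiers among the 55573 genes counted in each library, by a rule that used only their names. The names were chosen with earlier results of these data known. All 10 were among the 18442 genes with enough counts to be tested.

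The question of the study was how Schwann cells, the glia of peripheral nerves, depend on their leptin receptor (*Lepr*) for nerve repair after crush. Bulk RNA-seq was made from the endoneurium, the inner compartment of the nerve that holds axons, Schwann cells, fibroblasts, vessels and macrophages, of adult C57BL/6 mice of both sexes. The injured nerve was taken distal to a unilateral crush at 2 or 4 weeks post crush (wpc), and the healthy nerve was the uncrushed contralateral nerve. The 39 libraries came from 22 mice, 17 of which gave both nerves.

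Both genotypes carried the floxed *Lepr* alleles. *Lepr*-ctrl mice were Leprfl/fl. *Lepr*-cKO mice were Leprfl/fl::Dhh-Cre, in which Cre is expressed in the Schwann cell lineage from embryonic stages onward, so that exon 1 of *Lepr* is lost there while other endoneurial cells keep the gene and a truncated transcript remains. At 2 wpc there were 5 healthy and 5 injured *Lepr*-ctrl libraries and 6 healthy and 5 injured *Lepr*-cKO libraries. At 4 wpc there were 5 healthy and 4 injured libraries of each genotype. Mice were 2 to 4 months old.

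Iron is carried in plasma by transferrin, enters cells through the transferrin receptor, is stored inside the ferritin shell and leaves cells through ferroportin, with a copper-containing oxidase preparing it for reloading onto transferrin. Heme is broken down by heme oxygenases to iron, carbon monoxide and biliverdin. Macrophages recycle iron and heme from the cells and debris they engulf, and in the nerve myelinating glia need iron for lipid synthesis and respiration.

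Several of these mRNAs are governed by iron through a hairpin, the iron-responsive element, which is bound by the iron regulatory proteins when cellular iron is low. Bound near the start of an mRNA it blocks translation, and bound in the tail it protects the mRNA from decay, so for the storage and export genes the mRNA level does not by itself report the protein. The hairpins are shown because their place, near the start or in the tail, separates these classes among the members with a match. They were found in the GENCODE M21 transcripts (GRCm38) by searching for a bulged C, a 5-base stem and the loop CAGTGN, with G-U pairs allowed. The bulged C and the loop are in capitals, and each sequence is 29 bases, 5′ to 3′ on the mRNA strand.

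*Fth1*, 5′ UTR, chr19:9982732-9982760, plus strand: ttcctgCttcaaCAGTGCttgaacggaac

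*Ftl1*, 5′ UTR, chr7:45459779-45459807, minus strand: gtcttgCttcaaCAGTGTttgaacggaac

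*Slc40a1*, 5′ UTR, chr1:45925465-45925493, minus strand: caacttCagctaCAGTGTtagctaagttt

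*Tfrc*, 3′ UTR, chr16:32631219-32631247, plus strand: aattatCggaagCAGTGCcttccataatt

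*Tfrc*, 3′ UTR, chr16:32631598-32631626, plus strand: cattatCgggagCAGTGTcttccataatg

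*Tfrc*, 3′ UTR, chr16:32631663-32631691, plus strand: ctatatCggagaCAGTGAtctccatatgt

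*Tfrc*, 3′ UTR, chr16:32631710-32631738, plus strand: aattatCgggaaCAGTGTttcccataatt

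A match of these letters and pairs was present in the 5′ UTR of 31 of 20597 genes (0.151%), 3 of them members, and in the 3′ UTR of 129 of 20979 genes (0.615%), 1 of them a member. The other 6 members, *Slc11a2* among them, had no match in the annotated UTRs. Only this form was searched, so an element with another stem or loop would have been missed. The lack of a match therefore does not show that a member has no iron-responsive element. The match is a description of the sequence, and binding was not measured.

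Library totals ran from 10905806 to 45016322 counts with a median of 27752451, and the 4 injured *Lepr*-ctrl libraries at 4 wpc were among the shallowest (10905806 to 17640587). Levels are given as CPM, the count of a gene relative to the total of its library, with the total adjusted by the TMM normalization factor. Mean *Lepr* was 69.7 CPM in *Lepr*-cKO and 53.3 CPM in *Lepr*-ctrl injured nerves at 2 wpc and 30.6 against 44.6 CPM at 4 wpc (adjusted p = 0.939 and 0.362), and since its counts cover the whole gene and not exon 1 alone they do not check the genotype. Myelin genes, the defining markers of the tissue, summed to 83800 to 117000 CPM in healthy nerves. A list of 10 macrophage markers summed to 120 to 412 CPM in healthy and 1020 to 4760 CPM in injured nerves. The share of counts from mitochondrially encoded genes was 1.92% to 4.25% in healthy nerves and 2.95% to 33% in injured nerves. The injured *Lepr*-ctrl library of mouse SLRKO2wpc144 at 2 wpc had the highest mitochondrially encoded share, 33%, where the injured *Lepr*-cKO library of mouse SLRKO2wpc135 had 29.7%. The library of mouse SLRKO2wpc144 also had 9790 CPM of myelin genes, where the next lowest of its group had 22000 CPM. Its macrophage markers summed to 3810 CPM, where the next highest of its group had 2560 CPM. The injured *Lepr*-cKO library of mouse SLRKO2wpc126 at 2 wpc stood apart by 36100 CPM of skeletal muscle markers, which reached at most 30 CPM in any healthy library. It also had 1340 CPM of adipocyte markers, which reached at most 277 CPM in any other. Values without mouse SLRKO2wpc144 are given for *Fth1*, *Hmox1*, *Cp* and *Tfrc*, and without mouse SLRKO2wpc126 for *Tfrc*. Mice are named as in the labels, which at 2 wpc begin with SLRKO2wpc in both genotypes.

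A gene was called when its adjusted p was under 0.05 and its fold above 2 (log2 fold change beyond 1), the thresholds of the study. Adjusted p values are from edgeR's quasi-likelihood test over all 39 libraries with Benjamini-Hochberg adjustment over all genes tested, and ± marks the standard error of a log2 fold change.

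Per length of annotated exon (RPKM, the CPM divided by the kilobases of exon), the members spanned a wide range in healthy *Lepr*-ctrl nerves at 2 wpc. The heavy ferritin chain *Fth1* was highest at a mean of 2200 RPKM, followed by *Hmox1* at 49.9 RPKM, *Cp* at 21.8 RPKM and *Tfrc* at 10.5 RPKM. *Slc11a2* at 7.5 RPKM overlapped *Tfrc*, and *Slc11a1* at 1.81 RPKM overlapped *Trf* at 2.60 RPKM. *Ftl1* at 1.07 RPKM, *Cd163l1* at 0.275 RPKM and *Slc40a1* at 0.0768 RPKM were lowest, and the ranges of the remaining neighbours in this order did not overlap. The places of *Ftl1* and *Trf* are uncertain. Of the 50-base stretches of their transcripts 58.4% and 59.4% also occur in transcripts of other genes. How reads there were assigned is not given in the sources used here. In injured *Lepr*-ctrl nerves at 4 wpc *Fth1* and *Hmox1* were still first (3220 and 54.4 RPKM), while *Cp*, *Slc11a1* and *Trf* overlapped one another at 13.8, 12.1 and 11.2 RPKM, and *Slc40a1* had moved above *Cd163l1*, with overlapping ranges.

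Ferroportin *Slc40a1*, the phagosomal metal transporter *Slc11a1* and transferrin *Trf* rose in both genotypes at both times. The scavenger receptor *Cd163l1* was called higher in the same 4 comparisons, with large spread between libraries, and the light ferritin chain *Ftl1* rose at 2 wpc. The ferroxidase *Cp* was called lower at 2 wpc in both genotypes, and *Fth1* and *Hmox1* were called lower at 2 wpc in *Lepr*-cKO nerves. None of these was called at 4 wpc. In *Lepr*-ctrl nerves at 2 wpc *Fth1* and *Hmox1* were also lower (adjusted p = 0.0013 and 0.00389), but short of the fold threshold. The difference in response between genotypes at 2 wpc was not called for either gene. *Tfrc* and *Slc11a2*, which take up iron into cells, were not called in any comparison. In *Lepr*-ctrl nerves at 2 wpc 5 members were called higher and 1 lower, where 19.8% of all tested genes were called higher and 14.3% lower (34.1% in all). In *Lepr*-cKO nerves at 2 wpc the counts were 5 higher and 3 lower (20.9% and 13.4% of all genes, 34.3% in all). At 4 wpc 4 members were called higher and 0 lower in each genotype (in *Lepr*-ctrl 20.1% of all genes higher and 15.9% lower, 36% in all, and in *Lepr*-cKO 16.8% and 10.8%, 27.6% in all). The median log2 fold change over the members was 0.84, 0.81, 0.50 and 0.34 in these 4 comparisons, beside medians of 0.08, 0.10, 0.02 and 0.06 over all genes.

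**Figure D1:**
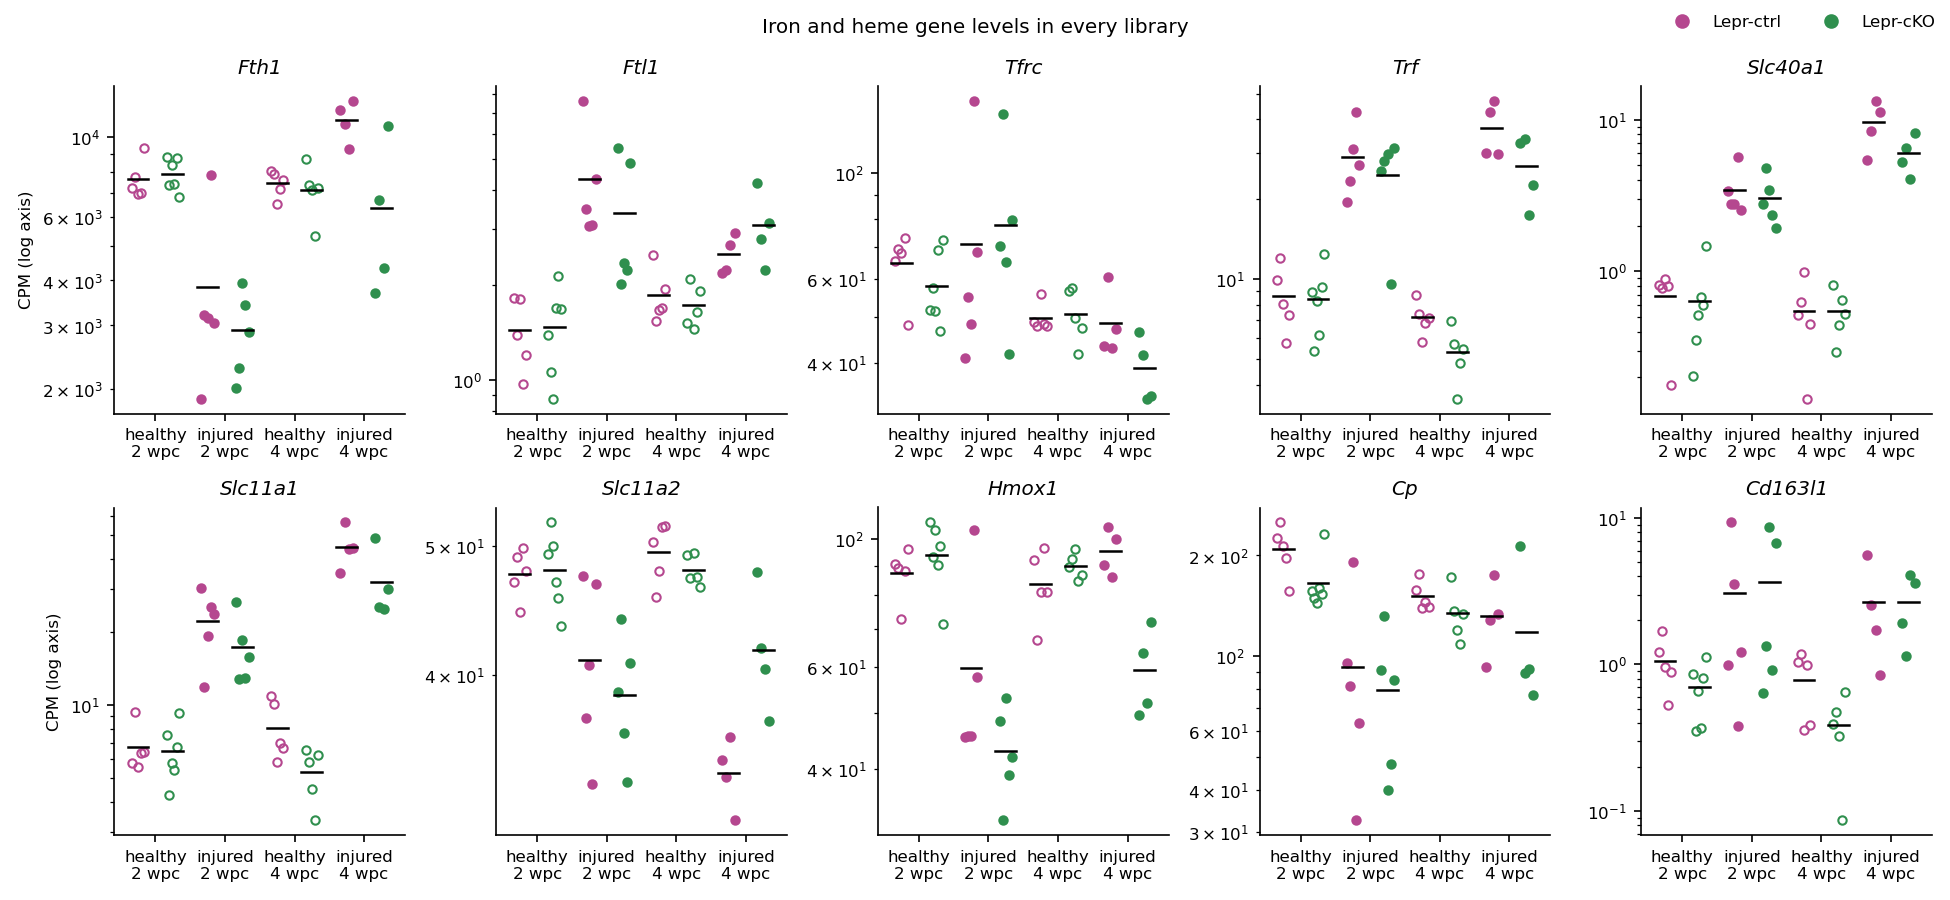
Level of each of the 10 genes in CPM (log axis) in the 39 libraries, by nerve and time, with *Lepr*-ctrl in magenta and *Lepr*-cKO in green, healthy nerves as open and injured nerves as filled points, and the mean of each group as a bar. *Slc40a1* and *Slc11a1* lie higher in every injured group than in every healthy group of the same time and genotype, while *Fth1* and *Hmox1* are low in injured nerves at 2 wpc except in 1 *Lepr*-ctrl library (7860 and 104 CPM).

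**Figure D2:**
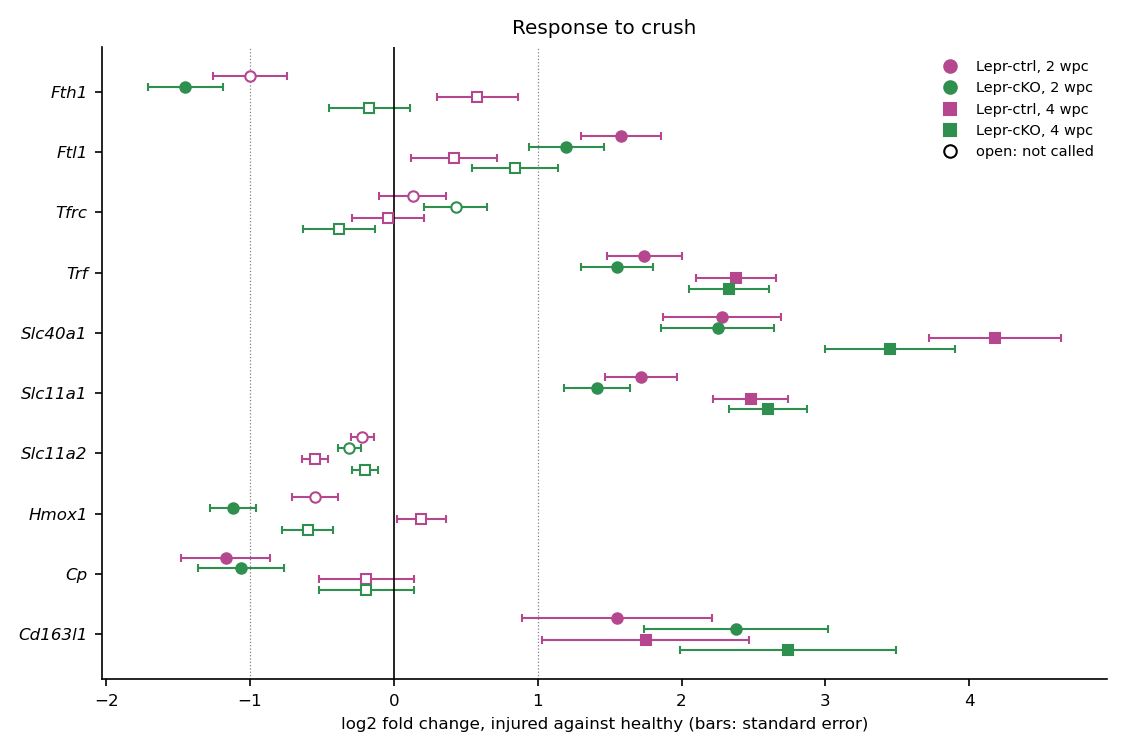
Log2 fold change of each gene, injured against healthy, in the 4 groups of mice, with the standard error as bars. Circles are 2 wpc and squares 4 wpc, filled symbols passed both thresholds, and the dotted lines mark a fold of 2 in either direction.

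*Slc40a1* encodes ferroportin, the iron exporter, at chr1:45908068-45926523 on the minus strand. It was scarce in healthy nerves, at 0.819, 0.775, 0.886, 0.797 and 0.178 CPM in *Lepr*-ctrl mice at 2 wpc, and 3.39, 2.80, 2.78, 5.70 and 2.53 CPM in injured nerves of the same time. At 4 wpc the 5 healthy *Lepr*-ctrl libraries had 0.519, 0.625, 0.985, 0.145 and 0.453 CPM and the 4 injured libraries 5.40, 8.48, 13.3 and 11.3 CPM. Every injured library lay above every healthy one. The log2 fold change was 2.28 ± 0.41 at 2 wpc (4.84-fold, adjusted p = 1.34e-05) and 4.18 ± 0.46 at 4 wpc (18.1-fold, adjusted p = 1.26e-09), the largest change of any member.

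In *Lepr*-cKO mice *Slc40a1* ranged from 0.203 to 1.47 CPM in healthy nerves at 2 wpc with a median of 0.56, and was 2.77, 4.83, 3.42, 2.35 and 1.93 CPM in injured nerves. At 4 wpc it was 0.819, 0.293, 0.444, 0.648 and 0.521 CPM in healthy and 5.29, 6.51, 4.06 and 8.15 CPM in injured nerves. The groups did not overlap at either time, and the log2 fold changes were 2.25 ± 0.39 (adjusted p = 5.62e-06) and 3.45 ± 0.45 (adjusted p = 7.84e-08). In all 17 mice with both nerves the injured nerve was higher. With as few as 4 counts in a healthy library, the size of these folds is less certain than their direction.

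*Slc11a1*, on chr1:74375195-74386062 (plus strand), encodes a transporter that moves iron and manganese out of the phagosomes of macrophages. Injured *Lepr*-ctrl nerves had 30.5, 11.9, 19.3, 25.3 and 23.7 CPM at 2 wpc and 34.9, 56.6, 44.0 and 44.3 CPM at 4 wpc, against 5.59 to 10.9 CPM over the 10 healthy nerves. Injured *Lepr*-cKO nerves had 26.6, 12.8, 18.6, 13 and 15.8 CPM at 2 wpc and 48.7, 25.4, 25.0 and 30.1 CPM at 4 wpc, against 3.37 to 9.33 CPM over the 11 healthy nerves. No injured library of a genotype fell into the range of its healthy ones. The log2 fold changes were 1.72 ± 0.25 and 1.41 ± 0.23 at 2 wpc and 2.48 ± 0.26 and 2.60 ± 0.27 at 4 wpc (*Lepr*-ctrl first, adjusted p of 2.92e-06 or less), and the injured nerve was higher in 17 of 17 mice.

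*Trf*, on chr9:103204001-103230444 (minus strand), encodes transferrin. Healthy *Lepr*-ctrl nerves had 9.92, 12, 8.09, 5.76 and 7.34 CPM at 2 wpc and injured ones 19.6, 23.5, 30.9, 42.8 and 27 CPM. Injured *Lepr*-cKO nerves at 2 wpc had 25.6, 27.8, 29.7, 9.57 and 31.2 CPM against 5.35 to 12.5 CPM in healthy nerves, so that 1 library, of mouse SLRKO2wpc135, fell among the healthy ones. At 4 wpc the injured nerves had 29.8, 42.8, 47.0 and 29.6 CPM in *Lepr*-ctrl and 32.5, 33.9, 17.5 and 22.7 CPM in *Lepr*-cKO mice. These lay above all healthy nerves, which reached 8.75 and 6.98 CPM. *Trf* rose by 1.74 ± 0.26 and 1.55 ± 0.25 at 2 wpc and by 2.38 ± 0.28 and 2.33 ± 0.28 at 4 wpc on the log2 scale (adjusted p of 1.36e-06 or less). Of its 3320 exonic bases 2108 are shared with the annotated gene Gm20425 on the same strand, which had 0 counts in every library, and how reads in the shared part were assigned is not given in the sources used here.

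Macrophage markers rose in the same comparisons as these 3 genes. *Cd68* rose by 3.76 ± 0.32 and *Adgre1* by 2.43 ± 0.31 in *Lepr*-ctrl nerves at 2 wpc (log2, adjusted p = 4.72e-12 and 2.44e-08), and 8, 8, 10 and 9 of the 10 macrophage markers were called higher in the 4 injury comparisons, in the order *Lepr*-ctrl and *Lepr*-cKO at 2 wpc, then the same at 4 wpc. Markers of other cell types moved too. In the same order 6, 0, 6 and 0 of 6 adipocyte markers, 3, 2, 1 and 1 of 3 tested neutrophil markers, 1, 4, 2 and 0 of 5 endothelial markers and 5, 5, 3 and 4 of 6 repair Schwann cell markers were called higher, and 6, 6, 7 and 3 of 7 myelin genes lower. The adipocyte markers were uneven, summing to 0.114 to 234 CPM (median 0.66) in injured *Lepr*-ctrl nerves at 2 wpc and 0.0557 to 234 CPM at 4 wpc, and the library at 0.0557 CPM, of mouse WT-173, had the highest *Slc40a1* and *Trf* of its group (13.3 and 47.0 CPM). In injured *Lepr*-cKO nerves they summed to 0.259 to 1340 and 1.15 to 277 CPM at 2 and 4 wpc. Healthy nerves reached 161 and 107 CPM in *Lepr*-cKO but only 0.356 and 0.851 CPM in *Lepr*-ctrl mice. The difference in response between genotypes was called for 0 of these 6 markers at either time. Neutrophil markers summed to at most 5.13 CPM in any library. The part of these cell types in the 3 genes was not tested. In bulk tissue a change in the number of cells of a type and a change in the RNA per cell cannot be told apart. Genes whose 8 group means ran closest to those of *Slc40a1* were *Pik3ap1*, *Prkcb* and *Arhgap30*, with root mean square differences of 0.13, 0.17 and 0.18 log2 units where *Slc40a1* itself spanned 4.07. For *Slc11a1* they were *Pik3cg*, *Scml4* and *Fcgr1* (0.10, 0.15 and 0.16, span 3.09), and for *Trf* they were *Ltc4s*, *Tifa* and *Lsp1* (0.08, 0.12 and 0.12, span 2.80).

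*Cd163l1*, on chr7:140218267-140231145 (plus strand), encodes a scavenger receptor of the CD163 family that is known from gamma-delta T cells. It was the most uneven member. Injured *Lepr*-ctrl nerves had 0.991, 9.34, 3.56, 0.380 and 1.21 CPM at 2 wpc and 5.57, 2.55, 1.73 and 0.845 CPM at 4 wpc, and injured *Lepr*-cKO nerves had 0.634, 1.33, 8.74, 0.917 and 6.71 CPM at 2 wpc and 1.91, 1.15, 4.06 and 3.59 CPM at 4 wpc. Healthy libraries ran from 0.0864 CPM, which was 2 counts, to 1.70 CPM. Only in *Lepr*-cKO nerves at 4 wpc did injured and healthy libraries not overlap.

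The log2 fold changes of *Cd163l1* were 1.55 ± 0.66 (adjusted p = 0.0388) and 2.38 ± 0.64 (0.00148) at 2 wpc and 1.75 ± 0.72 (0.0341) and 2.74 ± 0.75 (0.00234) at 4 wpc, *Lepr*-ctrl first. The *Lepr*-ctrl call at 2 wpc held in 8 of 17 alternatives and that at 4 wpc in 11 of 15. Without the injured library of mouse SLRKO2wpc130 the value at 2 wpc was 0.56 (adjusted p = 0.452), with the animal as a block it was 1.5 (adjusted p = 0.0821), and without that of mouse WT-170 the value at 4 wpc was 1.11 (adjusted p = 0.215). *Trdc*, the constant chain of the gamma-delta T cell receptor, was 0 to 0.558 CPM in healthy and 0.288 to 2.84 CPM in injured libraries and rose in the 4 comparisons, by 2.66 ± 0.61 in *Lepr*-ctrl nerves at 2 wpc (adjusted p = 0.000267). Of the 6 tested genes of the T cell list 5 were called higher and 0 lower in each comparison, 1 had an adjusted p under 0.05 in the lower direction, short of the fold threshold, in 3 of the 4, and *Il17a* had 0 counts in every library. The summed level of the list did not follow the count, with medians of 11.1 CPM in healthy and 8.92 CPM in injured *Lepr*-ctrl nerves at 2 wpc and 12.7 and 11.4 CPM at 4 wpc, and of 10.9 and 12.5 CPM and then 11.4 and 10.6 CPM in *Lepr*-cKO nerves. The part of such cells in the level of *Cd163l1* was not tested.

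*Fth1*, on chr19:9980598-9985098 (plus strand), encodes the heavy ferritin chain, which oxidizes iron as it is stored. Healthy *Lepr*-ctrl nerves had 7220, 7750, 6950, 6990 and 9310 CPM at 2 wpc, and healthy *Lepr*-cKO nerves 6820 to 8790 CPM with a median of 7900. Injured nerves at 2 wpc had 1880, 3210, 3140, 7860 and 3040 CPM in *Lepr*-ctrl and 2010, 2290, 3940, 3430 and 2870 CPM in *Lepr*-cKO mice. All injured libraries lay below all healthy ones except the *Lepr*-ctrl library of mouse SLRKO2wpc144 at 7860 CPM.

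*Fth1* fell in *Lepr*-cKO nerves by 1.45 ± 0.26 on the log2 scale (2.72-fold lower, adjusted p = 9.82e-06). In *Lepr*-ctrl nerves the log2 fold change was -1.0 ± 0.26 (adjusted p = 0.0013), just short of the fold threshold. It was -1.44 (adjusted p = 1.9e-06) without the library of mouse SLRKO2wpc144 and -1.48 (adjusted p = 0.000183) with the animal as a block, both past it. In the 4 *Lepr*-ctrl mice with both nerves at 2 wpc the injured nerve had 0.243 to 0.462 of the healthy level, and in the 5 *Lepr*-cKO mice 0.229 to 0.470.

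At 4 wpc *Fth1* in injured *Lepr*-ctrl nerves was 11900, 10900, 9240 and 12600 CPM, above every healthy nerve (6510 to 8050 CPM), but the log2 fold change of 0.58 ± 0.28 did not pass (adjusted p = 0.063). In *Lepr*-cKO nerves it was 3690, 6680, 4330 and 10700 CPM against 8670, 7370, 7120, 5310 and 7200 CPM in healthy nerves. These groups overlapped, and the log2 fold change was -0.17 ± 0.28 (adjusted p = 0.627). The response to crush was 1.58 ± 0.38 log2 units higher at 4 than at 2 wpc in *Lepr*-ctrl nerves (adjusted p = 0.00738), one of 2 members called in this comparison, in which 4.42% of all genes were called. It was 1.28 ± 0.37 units higher in *Lepr*-cKO nerves (adjusted p = 0.0623), where 0 members and 1.42% of all genes were called by edgeR, 6 members had an unadjusted p under 0.05 (14.6% of all genes did), and DESeq2 called 2 members.

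The other member whose response differed between the times in *Lepr*-ctrl nerves was *Slc40a1*, by 1.90 ± 0.60 log2 units (adjusted p = 0.0388). This call held in 10 of 26 alternatives, with adjusted p from 0.0108 to 0.106, and not with the animal as a block (2.04, adjusted p = 0.106). *Slc11a1* passed under the block, at 1.05 in *Lepr*-ctrl (adjusted p = 0.0367) and 1.23 in *Lepr*-cKO nerves (adjusted p = 0.0328), and did not pass without it (0.75 and 1.19, adjusted p = 0.18 and 0.0643).

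*Hmox1*, on chr8:75093621-75100589 (plus strand), encodes the inducible heme oxygenase. Healthy nerves of both genotypes had 67.0 to 107 CPM. Injured nerves at 2 wpc had 45.5, 45.7, 45.6, 104 and 57.8 CPM in *Lepr*-ctrl and 48.4, 32.6, 53.1, 39 and 41.9 CPM in *Lepr*-cKO mice. The highest *Lepr*-ctrl value again belonged to mouse SLRKO2wpc144, and the other 4 lay below all healthy nerves. *Hmox1* fell in *Lepr*-cKO nerves by 1.12 ± 0.16 (2.18-fold lower, adjusted p = 2.08e-07), and in *Lepr*-ctrl nerves its log2 fold change was -0.55 ± 0.16 (adjusted p = 0.00389), or -0.84 without mouse SLRKO2wpc144, under the fold threshold either way.

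At 4 wpc *Hmox1* in injured *Lepr*-ctrl nerves was 90.2, 105, 86.1 and 100 CPM, of which 2 libraries lay above all 5 healthy nerves (67 to 96.7 CPM) and 2 among them (0.19 ± 0.17 log2, adjusted p = 0.346). In injured *Lepr*-cKO nerves it was 49.5, 63.5, 52.1 and 71.9 CPM, below all 5 healthy nerves (84.7 to 96.2 CPM), with a log2 fold change of -0.60 ± 0.18 (adjusted p = 0.00398) that did not reach the fold threshold. The difference between the responses at 4 and 2 wpc in *Lepr*-ctrl nerves was 0.74 ± 0.24 (adjusted p = 0.0445), and it passed the fold threshold too without mouse SLRKO2wpc144 (1.03, adjusted p = 0.000364) and under the block (1.07, adjusted p = 0.00281).

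The share of mitochondrially encoded counts is given beside *Fth1* and *Hmox1* because it varied widely among the same injured libraries. At 4 wpc the *Lepr*-cKO libraries with shares of 2.95%, 9.84%, 12.6% and 20.2% had 3690, 4330, 6680 and 10700 CPM of *Fth1* and 49.5, 52.1, 63.5 and 71.9 CPM of *Hmox1*, in the same order. The *Lepr*-ctrl libraries at 4 wpc had shares of 17.2% to 21.6%. At 2 wpc the library of mouse SLRKO2wpc144, with the highest share, was also highest in both genes, but the injured *Lepr*-cKO library of mouse SLRKO2wpc135 with a share of 29.7% had 3430 CPM of *Fth1* and 39 CPM of *Hmox1*. Leaving the mitochondrially encoded genes out of the normalization left the *Lepr*-ctrl value of *Fth1* at 2 wpc at -0.98 (adjusted p = 0.0015). The part of this share in either gene was not tested.

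**Figure D3:**
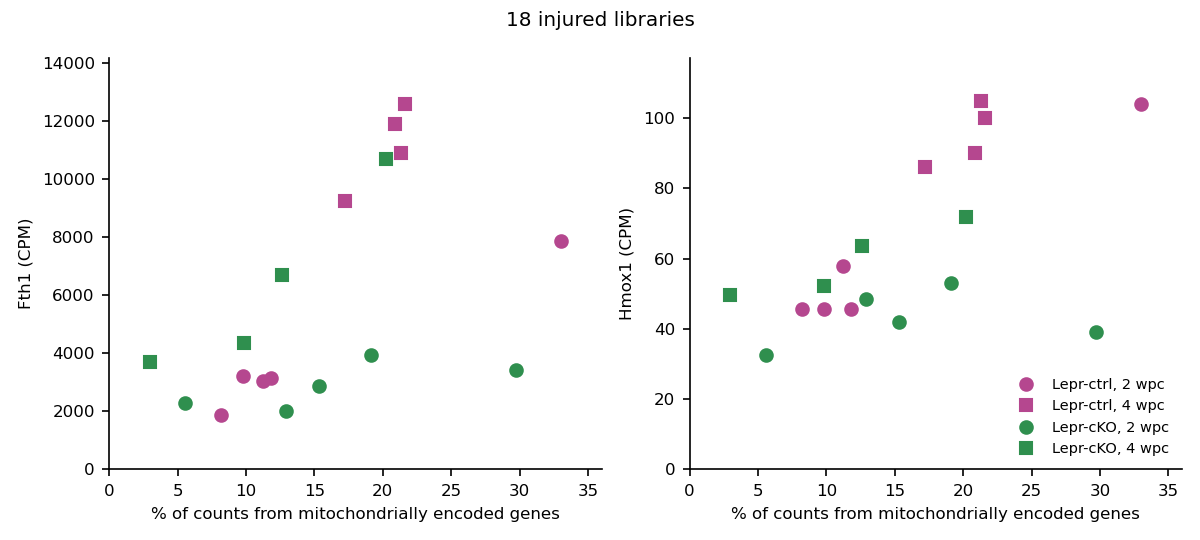
*Fth1* (left) and *Hmox1* (right) in CPM against the percent of counts from mitochondrially encoded genes in the 18 injured libraries, with circles for 2 wpc, squares for 4 wpc, magenta for *Lepr*-ctrl and green for *Lepr*-cKO. The 4 *Lepr*-cKO libraries at 4 wpc run from 2.95% and 3690 CPM of *Fth1* to 20.2% and 10700 CPM, and the *Lepr*-cKO library at 29.7% lies low in both panels.

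*Ftl1*, on chr7:45457944-45459884 (minus strand), encodes the light ferritin chain, and its measurement is limited. It had 25 to 200 counts per library, and 48.2% of all 50-base stretches of its transcripts also occur in transcripts of genes elsewhere, among them *Ftl1-ps1*, *Ftl1-ps2* and *Ftl2-ps*, which had at most 8 counts each. Annotated genes overlapping *Ftl1* share 25.7% of the stretches, among them Gm10252, which had at most 7 counts. The level of *Ftl1* therefore describes only the reads that were counted for it. Injured *Lepr*-ctrl nerves had 7.62, 3.48, 3.07, 3.09 and 4.32 CPM at 2 wpc against 0.974 to 1.82 CPM in healthy nerves, and injured *Lepr*-cKO nerves 5.42, 2.01, 2.35, 2.23 and 4.85 CPM against 0.874 to 2.14 CPM. The *Lepr*-ctrl groups did not overlap, and 1 *Lepr*-cKO library (2.01 CPM) lay within the healthy range.

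*Ftl1* rose at 2 wpc by 1.58 ± 0.28 in *Lepr*-ctrl (2.99-fold, adjusted p = 1.01e-05) and by 1.2 ± 0.26 in *Lepr*-cKO nerves (2.29-fold, adjusted p = 0.000183), beside log2 fold changes of -1.0 and -1.45 for the heavy chain *Fth1*. The *Lepr*-cKO value was 0.98 without the injured library of mouse SLRKO2wpc125, below the fold threshold. At 4 wpc it was 0.42 ± 0.30 (adjusted p = 0.225) and 0.84 ± 0.30 (adjusted p = 0.016), not called. The injured nerve was higher in 17 of 17 mice with both nerves.

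*Cp*, on chr3:19957054-20009145 (plus strand), encodes ceruloplasmin, the copper ferroxidase that works with ferroportin. At 2 wpc healthy *Lepr*-ctrl nerves had 225, 251, 214, 197 and 157 CPM and injured ones 95.3, 81.6, 191, 32.5 and 63.5 CPM, overlapping through the injured library of mouse SLRKO2wpc131. Healthy *Lepr*-cKO nerves had 144.4 to 231.9 CPM with a median of 155, above all injured ones at 91.3, 132, 40.0, 47.9 and 85.3 CPM. *Cp* fell by 1.17 ± 0.31 (adjusted p = 0.00143) and 1.06 ± 0.30 (adjusted p = 0.00243), and by less than the fold threshold without mouse SLRKO2wpc144 in *Lepr*-ctrl (-0.95) or without the injured libraries of mice SLRKO2wpc128 or SLRKO2wpc135 or the healthy library of mouse SLRKO2wpc138 in *Lepr*-cKO nerves (-0.87, -0.93 and -0.92). At 4 wpc injured nerves had 92.7 to 174.7 CPM in *Lepr*-ctrl and 76.9 to 214 CPM in *Lepr*-cKO mice, overlapping healthy nerves (medians of 145 and 134 CPM), and the log2 fold change was -0.19 ± 0.33 in both genotypes (adjusted p = 0.62 and 0.644).

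*Tfrc*, on chr16:32608920-32632794 (plus strand), encodes the transferrin receptor and carries the 4 hairpins in its tail. It ranged from 41.8 to 73.1 CPM in healthy and 33.6 to 142 CPM in injured nerves, the highest values being the libraries of mice SLRKO2wpc144 (142 CPM) and SLRKO2wpc126 (133 CPM). The log2 fold changes were 0.13 ± 0.23, 0.43 ± 0.22, -0.04 ± 0.25 and -0.38 ± 0.25 in *Lepr*-ctrl and *Lepr*-cKO nerves at 2 wpc and then at 4 wpc, with adjusted p of 0.0935 or more. Without mouse SLRKO2wpc144 the *Lepr*-ctrl value at 2 wpc turned to -0.29 (adjusted p = 0.21), and without mouse SLRKO2wpc126 the *Lepr*-cKO value was 0.16 (adjusted p = 0.521). The 95% intervals reached from -0.35 to 0.60 and from -0.55 to 0.47 in *Lepr*-ctrl nerves at 2 and 4 wpc. In *Lepr*-cKO nerves they reached from -0.03 to 0.88 and from -0.89 to 0.14. Changes within these intervals remain compatible with the data.

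*Slc11a2*, on chr15:100387898-100425072 (minus strand), encodes DMT1, which carries iron across endosomal and plasma membranes. It was the most even member, at 43.5 to 52.1 CPM in healthy nerves, and the injured nerve was lower in 17 of 17 mice. At 4 wpc injured *Lepr*-ctrl nerves had 34.5, 33.5, 35.9 and 31.1 CPM, all below the healthy ones, with a log2 fold change of -0.55 ± 0.09 (1.47-fold lower, adjusted p = 2.86e-06). At 2 wpc the values were -0.22 ± 0.08 and -0.31 ± 0.08 (adjusted p = 0.0244 and 0.0011), and in *Lepr*-cKO nerves at 4 wpc -0.20 ± 0.09 (adjusted p = 0.0583). None reached a fold of 2. In the *Lepr*-ctrl nerves at 2 wpc the value was -0.16 (adjusted p = 0.129) with the animal as a block.

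Counted by whether injured and healthy libraries overlapped at all, 4 members separated in *Lepr*-ctrl nerves at 2 wpc (47.9% of all genes did) and 5 in *Lepr*-cKO nerves (41.4%). At 4 wpc 5 members separated in *Lepr*-ctrl (54.8%) and 6 in *Lepr*-cKO nerves (41.9%).

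The comparison of *Lepr*-cKO with *Lepr*-ctrl nerves asked whether the Schwann cell leptin receptor altered these genes. By edgeR 0 of 10 members were called in healthy or injured nerves at either time, where 0.00542% of all genes were called in healthy nerves at 2 wpc, 0.00542% in healthy nerves at 4 wpc, 0.569% in injured nerves at 2 wpc and 0.45% in injured nerves at 4 wpc. DESeq2 called 0 in each as well. An unadjusted p under 0.05 was reached by 0 and 1 members in healthy nerves at 2 and 4 wpc (1.2% and 1.88% of all genes), by 1 in injured nerves at 2 wpc (6.44%) and by 3 in injured nerves at 4 wpc (19.9%), *Hmox1*, *Fth1* and *Slc11a2*.

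In injured nerves at 4 wpc *Hmox1* was lower in each of the 4 *Lepr*-cKO libraries (49.5 to 71.9 CPM) than in each of the 4 *Lepr*-ctrl libraries (86.1 to 105 CPM). The log2 fold change was -0.69 ± 0.18 (1.61-fold lower, adjusted p = 0.0503), and over 13 alternatives it lay between -0.80 and -0.61 with adjusted p from 0.0108 to 0.315. *Slc11a2* was higher in each *Lepr*-cKO library (36.9 to 47.8 CPM) than in each *Lepr*-ctrl library (31.1 to 35.9 CPM), by 0.31 ± 0.10 (adjusted p = 0.0759, 0.023 to 0.321 over the alternatives). These were the 2 members of 10 whose genotypes did not overlap, where 5.68% of all genes did not.

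*Fth1* overlapped between genotypes through the *Lepr*-cKO library of mouse KO-177 (10700 CPM against 9240 to 12600 CPM), and the other 3 libraries were lower (3690 to 6680 CPM). The log2 fold change was -0.81 ± 0.29 (adjusted p = 0.116), and -1.19 (adjusted p = 0.0109), past both thresholds, without mouse KO-177. The 95% interval of the full data was -1.41 to -0.22. Beside these values, the same *Lepr*-ctrl libraries had 2190 to 4760 CPM of macrophage markers against 1490 to 2490 CPM in *Lepr*-cKO, 24700 to 33100 CPM of myelin genes against 30300 to 76100 CPM, and mitochondrially encoded shares of 17.2% to 21.6% against 2.95% to 20.2%. The part of these in the 3 genes was not tested.

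**Figure D4:**
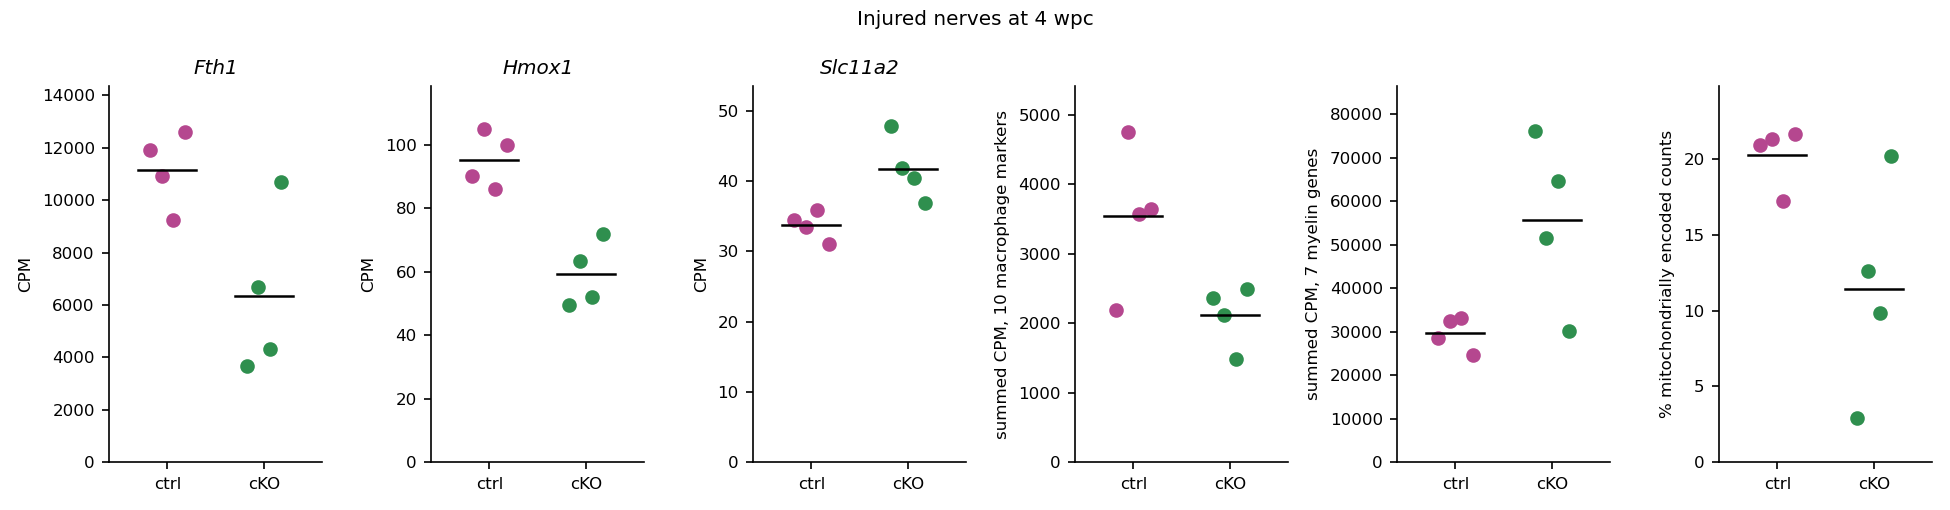
The 4 *Lepr*-ctrl and 4 *Lepr*-cKO injured libraries at 4 wpc, with *Fth1*, *Hmox1* and *Slc11a2* in CPM, the summed CPM of 10 macrophage markers and of 7 myelin genes, and the percent of mitochondrially encoded counts, each from 0 on a linear axis with the group mean as a bar. The genotypes separate for *Hmox1* and *Slc11a2* and overlap through 1 *Lepr*-cKO library for *Fth1* (10700 CPM), myelin genes (30300 CPM) and mitochondrially encoded share (20.2%).

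Whether the response to crush itself differed between genotypes was tested as an interaction. By edgeR 0 members were called at either time (0% of all genes), 1 and 2 members had an unadjusted p under 0.05 at 2 and 4 wpc (4.32% and 10.9% of all genes), and DESeq2 called 0. For *Hmox1* the response was 0.57 ± 0.23 log2 units lower in *Lepr*-cKO than in *Lepr*-ctrl mice at 2 wpc (adjusted p = 0.999) and 0.79 ± 0.25 lower at 4 wpc (adjusted p = 0.384). The *Fth1* call in *Lepr*-cKO and not in *Lepr*-ctrl nerves at 2 wpc is therefore not a shown difference (-0.45 ± 0.36, adjusted p = 0.999). Without mouse SLRKO2wpc144 these differences at 2 wpc were -0.28 for *Hmox1* (adjusted p = 0.967) and -0.01 for *Fth1* (adjusted p = 0.998). For *Trf* and *Slc11a1* at 4 wpc the 95% intervals of the difference were -0.84 to 0.74 and -0.61 to 0.87. The difference for *Slc40a1* at 4 wpc was -0.73 ± 0.62 (adjusted p = 0.678), with a wider interval of -1.99 to 0.54.

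The wider pathway was described through lists of genes for heme handling, iron sensing, other iron carriers, heme synthesis and iron-sulfur cluster assembly. In *Lepr*-ctrl nerves at 2 wpc, 2 genes of 12 tested for heme and hemoglobin uptake, export and breakdown were called higher and 3 lower. Over all tested genes 19.8% were called higher and 14.3% lower in that comparison. *Cd163*, the macrophage receptor for hemoglobin bound to haptoglobin, fell from 18.8 to 46.3 CPM in healthy to 2.48 to 8.12 CPM in injured nerves, by 2.76 ± 0.43 (log2, adjusted p = 1.2e-06). It fell too in *Lepr*-cKO nerves (2.38 ± 0.41) and at 4 wpc in both genotypes (1.39 ± 0.45 and 1.73 ± 0.46, adjusted p = 0.00737 and 0.00169), where 10 and 9 of the 10 general macrophage markers were called higher. *Cd163* and *Cd163l1*, of the same receptor family, thus moved in opposite directions in the 4 comparisons, with the limits given for *Cd163l1*.

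The heme transporter *Slc48a1* fell at 2 wpc by 1.31 ± 0.09 and 1.63 ± 0.09, without overlap (205 to 263 CPM in healthy and 82.8 to 103 CPM in injured *Lepr*-ctrl nerves), and the heme and lipoprotein receptor *Lrp1* fell by 1.23 ± 0.21 in *Lepr*-ctrl nerves (adjusted p = 3.37e-06). *Blvra*, biliverdin reductase A, which acts after heme oxygenase, rose in the 4 comparisons, from 7.03 to 8.77 CPM in healthy to 17.4 to 49.9 CPM in injured *Lepr*-ctrl nerves at 2 wpc (1.89 ± 0.18, adjusted p = 6.35e-11) and by 2.54 ± 0.19 at 4 wpc. *Blvrb* was 0.89 ± 0.17 at 2 wpc and rose by 2.11 ± 0.18 at 4 wpc, and its response differed between the times in both genotypes (1.22 ± 0.24 each, adjusted p = 0.00148 and 0.0029). The constitutive oxygenase *Hmox2* was at 0.78 ± 0.17 at 2 wpc and rose by 1.58 ± 0.18 at 4 wpc in *Lepr*-ctrl nerves. In injured nerves at 4 wpc its genotype difference was -0.75 ± 0.19 (adjusted p = 0.0455), under the fold threshold.

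Of 10 tested genes of iron sensing and hormonal control, 1 was called higher and 1 lower in *Lepr*-ctrl nerves at 2 wpc (19.8% and 14.3% of all genes). *Hamp*, the iron hormone hepcidin that degrades ferroportin, was near the detection limit, at 0.0295 to 0.182 CPM in healthy and 0.183 to 1.14 CPM in injured nerves (2.32 ± 0.69, adjusted p = 0.00374). *Bmp6*, which drives hepcidin in the liver, fell by 1.22 ± 0.40 (adjusted p = 0.00814). The iron regulatory proteins *Aco1* (-0.16 ± 0.08, adjusted p = 0.0819) and *Ireb2* (0.07 ± 0.11, adjusted p = 0.601), which bind the hairpins, were not called, nor were *Fbxl5*, which removes *Ireb2* protein (-0.72 ± 0.09, adjusted p = 2.99e-08), and *Ncoa4*, the receptor for ferritin autophagy (-0.94 ± 0.22, adjusted p = 0.000451). *Ncoa4* passed in *Lepr*-cKO nerves at 2 wpc, falling by 1.48 ± 0.22 (adjusted p = 4.64e-07).

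Among 16 tested genes for other iron carriers, oxidases and reductases, 4 were called higher and 2 lower in that comparison (19.8% and 14.3% of all genes). *Slc39a8*, a metal importer, rose by 1.94 ± 0.39 (adjusted p = 5.08e-05) and the reductase *Steap1* by 2.73 ± 0.89 (adjusted p = 0.00817). *Scara5*, a receptor for ferritin, fell by 1.68 ± 0.33 at 2 wpc (adjusted p = 4.83e-05) and was -0.15 ± 0.35 at 4 wpc, and this difference between times passed in both genotypes (1.53 ± 0.47 and 1.69 ± 0.47, adjusted p = 0.0375 and 0.0454).

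*Slc39a14*, a metal importer, and *Cybrd1*, a reductase, were at 0.99 ± 0.23 and 0.67 ± 0.34 in *Lepr*-ctrl nerves at 2 wpc and were not called.

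*Slc22a17*, the receptor for lipocalin-bound iron, was the 1 gene of these lists called between genotypes. It fell with crush in the 4 comparisons, and at 4 wpc it was 43.5 to 61.0 CPM in injured *Lepr*-ctrl and 66.1 to 200 CPM in injured *Lepr*-cKO nerves (1.12 ± 0.24, adjusted p = 0.0216), against 249 to 377 CPM in the healthy nerves of that time. The myelin genes summed to 24700 to 33100 CPM in the same *Lepr*-ctrl and 30300 to 76100 CPM in the same *Lepr*-cKO libraries, and their part was not tested.

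Heme synthesis had 1 of 9 genes called higher in *Lepr*-ctrl nerves at 2 wpc, the entry enzyme *Alas1* (1.24 ± 0.21, adjusted p = 3.19e-06), which rose in the other 3 injury comparisons as well. Iron-sulfur cluster assembly had 1 of 8, the carrier *Glrx5* (1.26 ± 0.17, adjusted p = 7.22e-08), also called in all 4. *Ppox* of heme synthesis (0.82 ± 0.14) and *Iscu* of cluster assembly (0.44 ± 0.11) did not reach the fold threshold. Heme synthesis was split, with 4 genes at an adjusted p under 0.05 in each direction in *Lepr*-ctrl nerves at 2 wpc. Over all genes 34.1% were called in that comparison. At 4 wpc 2 heme synthesis genes were called lower in *Lepr*-ctrl nerves, where 15.9% of all genes were.

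**Figure D5:**
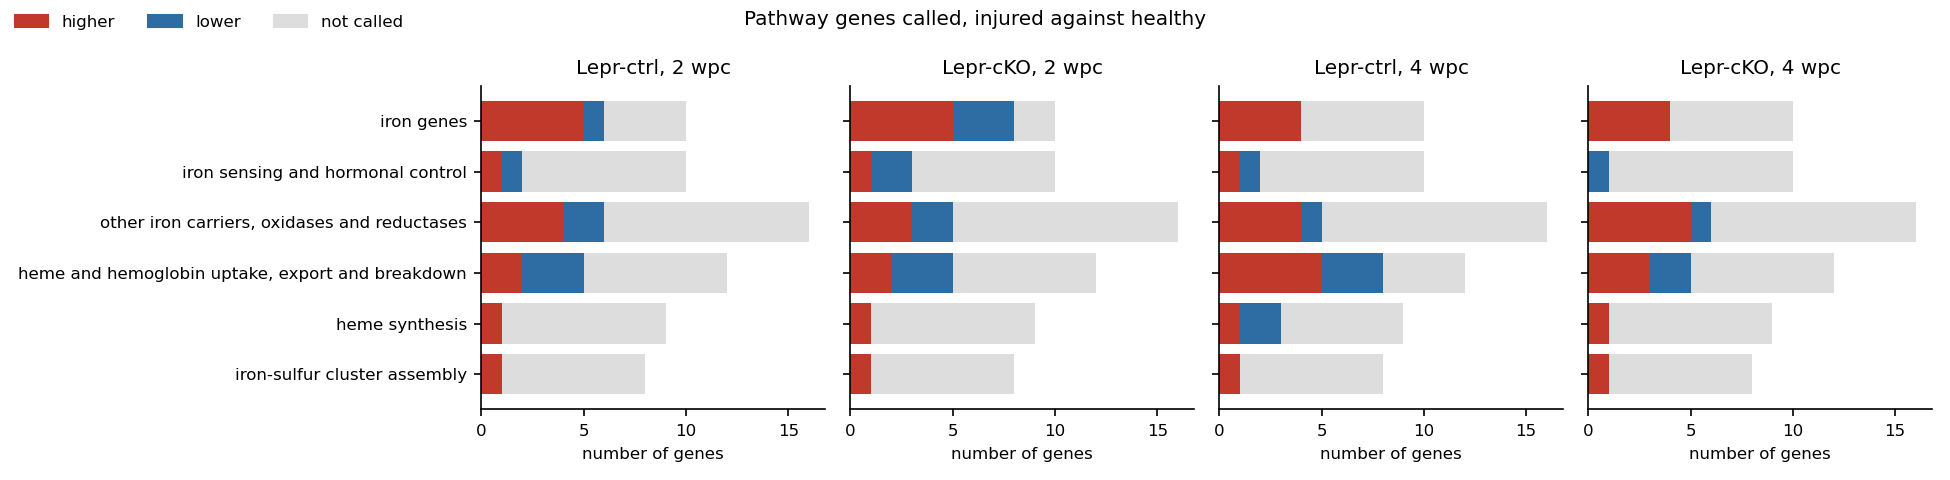
Number of tested genes called higher (red), lower (blue) or not called (grey) in each list, injured against healthy nerves, in the 4 groups of mice. In the iron list 5, 5, 4 and 4 genes were called higher and 1, 3, 0 and 0 lower from left to right. Heme synthesis and iron-sulfur assembly had 1 gene higher in each panel, and heme synthesis had 0, 0, 2 and 0 genes lower. Over all tested genes 19.8%, 20.9%, 20.1% and 16.8% were called higher and 14.3%, 13.4%, 15.9% and 10.8% lower.

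The patterns of the remaining members had close neighbours of their own. Closest to *Fth1* over the 8 group means was Gm6977, which shares 58 of the 3654 50-base stretches of *Fth1*, followed by *Echdc3* and *Gstm7* (0.18, 0.18 and 0.19 log2 units, span 1.97). For *Hmox1* they were *Slc19a3*, Mpc1-ps and *G6pdx* (0.08, 0.09 and 0.11, span 1.16), for *Cp* they were *Hopx*, *C1qtnf7* and *Sulf1* (0.13, 0.14 and 0.14, span 1.51), and for *Tfrc* they were *Hif1a*, *Tmem69* and *Mettl5* (0.07, 0.09 and 0.10, span 0.91).

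Red blood cells left in the tissue were checked because several members handle heme. The 7 erythrocyte genes found summed to 0.891 to 119 CPM over all libraries, 0 of the 4 tested were called in either genotype at 2 wpc, and 1 was lower in injured *Lepr*-ctrl nerves at 4 wpc. In injured *Lepr*-ctrl nerves at 2 wpc the sum ran from 2 to 111 CPM. The part of red blood cells in the level of the members was not tested.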

How the data were processed

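The authors demultiplexed with bcl2fastq (2.20.0.422), mapped by STAR (2.5) against GRCm38 and took gene totals from featureCounts (1.5.0-p1), per the labels. The deposited values are raw counts, 1 table per library. The strand setting and the handling of reads with several alignments are not given in the sources used here. Identifiers were named with GENCODE M21 (55480 of 55573 genes, 99.83%). Genes were kept by filterByExpr (minimum count 10), scaled by TMM and fitted in edgeR (4.0.16, R 4.3.3, limma 3.58.1) by glmQLFit and glmQLFTest with 1 mean for each of the 8 groups, all 39 libraries sharing the spread. The procedure was tested on simulated data. DESeq2 (1.42.0) was an alternative, as were its size factors, a normalization on nuclear genes alone, no filter, only the groups compared, adjusted p alone, each library left out, and the animal as a block. Both nerves of a mouse carry its number, so the animal pairs them. Over 5000 genes their deviations correlated at -0.116 to 0.567 (median 0.333), above 0.1 in 14 of 17 mice. The 10 genes were given by name, all other iron and marker genes by lists, and all were chosen with earlier results of these data known. The genes named from the pathway lists were up to 4 per list with the smallest p that were called in *Lepr*-ctrl nerves at 2 wpc and up to 2 that were not, plus *Cd163*, *Ncoa4*, *Aco1* and *Ireb2*. Likeness was the root mean square difference of 8 centred group means of log2 CPM, prior count 2, with 3 genes named at most per member. Hairpins were read from the annotated exons and UTRs. Labels do not tie libraries to litters or sequencing runs. Some genes of the pathway and marker lists entered the counts but are not reported here by name.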

Additional observations from a re-analysis of the deposited data

Results flagged for a closer look

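Of 80 combinations of gene and group, 12 had a library whose gap to its neighbour was large for the range of its group. About 4 would be flagged if the values were independent and normally distributed, which was not tested. The genes share the same libraries, so the flags are not independent. The injured *Lepr*-ctrl library of mouse SLRKO2wpc144 at 2 wpc was the highest of its group in *Fth1* (7860 CPM), *Hmox1* (104 CPM), *Tfrc* (142 CPM) and *Slc40a1* (5.70 CPM). In the same group *Ftl1* was highest in mouse SLRKO2wpc123 (7.62 CPM). The injured *Lepr*-cKO library of mouse SLRKO2wpc135 at 2 wpc was lowest in *Trf* (9.57 CPM), and that of mouse KO-169 at 4 wpc was highest in *Cp* (214 CPM). Among healthy nerves, mouse SLRKO2wpc138 (*Lepr*-cKO, 2 wpc) was highest in *Slc40a1* (1.47 CPM) and *Cp* (232 CPM), mouse SLRKO2wpc147 (*Lepr*-ctrl, 2 wpc) lowest in *Slc40a1* (0.178 CPM), mouse SLRKO2wpc123 highest in *Slc11a1* (9.36 CPM) and mouse WT-171 (*Lepr*-ctrl, 4 wpc) highest in *Tfrc* (55.8 CPM).

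The response to crush in *Lepr*-ctrl nerves differed between 4 and 2 wpc for *Fth1* (1.58 log2 units, adjusted p = 0.00738), *Slc40a1* (1.90, adjusted p = 0.0388) and *Hmox1* (0.74, adjusted p = 0.0445) in edgeR's quasi-likelihood test of the difference itself. The same difference in *Lepr*-cKO nerves was 1.28, 1.2 and 0.52, and whether the 2 genotypes differ in it was not tested.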

How the results depend on the processing

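Of 2300 values of a member in a comparison under an alternative, 2243 kept their call, 100 of them changing sign in a value called in neither, 35 lost the call, 22 gained it and 0 called values reversed. Counts of called members in the injury and genotype comparisons stayed within 1.5 times under every alternative except where 1 library was left out. Leaving out 1 library at a time gave 5 to 6 called members in *Lepr*-ctrl and 7 to 8 in *Lepr*-cKO nerves at 2 wpc, 3 to 4 and 4 at 4 wpc, and 0 to 1 between genotypes in injured nerves at 4 wpc (1 without mouse KO-177, *Fth1*). For the difference between times it gave 1 to 4 in *Lepr*-ctrl (4 without mouse SLRKO2wpc144, adding *Ftl1* and *Hmox1*, 2 with all libraries) and 0 to 1 in *Lepr*-cKO nerves. That difference in *Lepr*-ctrl was 1 member with no expression filter and 4 without the libraries of mice SLRKO2wpc126 and SLRKO2wpc144, and in *Lepr*-cKO nerves, with 0 in all libraries, 2 with DESeq2, 1 with the animal as a replicate block and 1 without mice SLRKO2wpc126 and SLRKO2wpc144; leaving out both was chosen after seeing the data. The cause was not tested. The replicate block changed no call of a member other than those given in the report. Low counts limit *Slc40a1*, *Cd163l1* and *Ftl1*, and the 4 injured libraries per genotype limit 4 wpc.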
